A study of Mus musculus with 6 samples.

Results

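Dexamethasone (Dex), a synthetic glucocorticoid, was compared with no treatment in burst-forming unit erythroid cells (BFU-E), the earliest progenitors committed to the red cell lineage. The comparison used 4 of the 6 libraries of the study, 2 from untreated and 2 from Dex-treated cells. It covered 14125 of the 37620 genes in the tables, which were all genes that passed a filter on low counts. The cells came from fetal livers of 129/SvImJ mice at embryonic stage E14.5 and carried no engineered allele that the labels name. They had been depleted of cells bearing lineage markers, Sca-1, CD16/32, CD41 or CD34 and then sorted as c-kit positive cells within the 10% lowest for CD71. The Dex cells were held in a serum-free medium with erythropoietin at 2 U/mL, stem cell factor at 100 ng/mL and insulin-like growth factor 1 at 40 ng/mL, with 100 nM Dex. For untreated cells the labels name the same medium alone, while the series text can also be read as freshly isolated cells, so time in culture and Dex cannot be told apart if that reading holds. The labels give 12 h of treatment, while headers in 1 of the 2 tables carry 36 h, and which of them holds was not settled here. The remaining 2 libraries, from cells with Dex and the PPARα agonist GW7647 at 10 µM, entered the model only to estimate the spread between libraries. The labels do not say whether the libraries of a group came from separate cultures or litters, so the p-values measure only the spread between these samples, which may be technical.

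Glucocorticoids act through the glucocorticoid receptor, a nuclear receptor encoded by Nr3c1 that is held in the cytosol by heat shock protein chaperones and moves to the nucleus once the hormone binds. There it binds palindromic DNA elements built on the hexamer AGAACA, or acts on other transcription factors, and can raise or lower transcription. In fetal liver BFU-E it is known as the receptor through which stress hormones favour self-renewal of the progenitor over maturation, alongside signals from Kit, the receptor of stem cell factor, and from the erythropoietin receptor.

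The promoters of 4 genes that rose with Dex show the sequence context of the results below. Mt2 and Mt1 encode metallothioneins, small zinc-binding proteins that are classical glucocorticoid and metal targets. Map3k6 encodes a stress kinase, and Txnip an arrestin-like protein that lowers glucose uptake. Each line is the 250 bases before a RefSeq start site, 5′ to 3′ on the plus strand of build GRCm38.p6. TGCNCNC is a short and loose form of the element bound by the metal-sensing factor MTF1, so a match need not be such an element. In Mt2 (chr8:94172368-94172617) the capitals mark the 5 matches to TGCNCNC, searched on both strands. In Mt1 (chr8:94178839-94179088) they mark 1 match to a loose form of the receptor's palindrome (GNACA and TGTNC with 3 bases between them, both strands) and then 1 match to TGCNCNC. In Map3k6 (chr4:133240568-133240817) and Txnip (chr3:96557707-96557956) they mark 1 match each to that loose palindrome.
Mt2: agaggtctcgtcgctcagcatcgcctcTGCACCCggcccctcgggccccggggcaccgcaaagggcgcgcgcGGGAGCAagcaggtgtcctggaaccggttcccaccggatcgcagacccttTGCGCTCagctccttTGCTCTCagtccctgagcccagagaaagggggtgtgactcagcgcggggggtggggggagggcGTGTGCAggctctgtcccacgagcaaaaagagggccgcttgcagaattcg
Mt1: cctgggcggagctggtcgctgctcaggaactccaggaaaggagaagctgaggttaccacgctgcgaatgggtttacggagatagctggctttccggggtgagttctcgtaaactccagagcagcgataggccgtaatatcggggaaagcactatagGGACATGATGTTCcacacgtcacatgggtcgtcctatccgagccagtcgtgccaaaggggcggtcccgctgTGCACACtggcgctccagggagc
Map3k6: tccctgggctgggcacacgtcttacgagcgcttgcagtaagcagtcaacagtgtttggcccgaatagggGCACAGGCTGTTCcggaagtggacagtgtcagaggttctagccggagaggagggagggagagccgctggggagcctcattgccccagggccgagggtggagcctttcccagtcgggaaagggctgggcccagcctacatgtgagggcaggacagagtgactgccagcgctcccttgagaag
Txnip: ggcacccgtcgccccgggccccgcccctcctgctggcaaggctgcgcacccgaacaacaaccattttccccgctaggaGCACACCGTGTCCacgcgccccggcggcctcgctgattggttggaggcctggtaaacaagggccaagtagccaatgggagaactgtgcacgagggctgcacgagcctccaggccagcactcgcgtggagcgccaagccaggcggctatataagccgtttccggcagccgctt

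Mt1, Map3k6 and Txnip were the 3 genes with a match to the loose palindrome among the 511 genes that rose at least 2-fold and had a promoter in the table, a share of 0.587%. The share was 0.416% of the 722 genes that fell at least 2-fold, 0.27% of all 9986 tested genes with a promoter, and 0.387% of all 32851 promoter windows of this length in the table. The full palindrome (AGAACA and TGTTCT with 3 bases between them) was in no window of the genes that changed at least 2-fold and in 3 windows of the whole table. A gene can have several windows. The hexamer AGAACA alone, which the full palindrome contains, was in a window of 14.3% of the genes that rose at least 2-fold. It was in a window of 14.8% of the genes that fell at least 2-fold and of 12.9% of those tested. Counted by window, the shares were 11.3%, 12.1% and 10.8%. TGCNCNC was in a window of 60.5%, 57.8% and 56.7% of these genes, and in 53.5%, 52.2% and 52.1% of the windows. None of these shares was tested, and a match describes letters in this window only.

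Read depth was between 37577414 and 54174801 counts in the 4 libraries. Dex replicate 1 stood apart in mitochondrial transcripts, which took 1.72% of its counts against 2.46% to 2.76% in the other 3. Globin transcripts took 6.49% and 7.16% of the counts in untreated and 3.12% and 2.96% in Dex libraries. All 8 markers chosen for erythroid progenitors (Kit, Gata1, Gata2, Epor, Tfrc, Klf1, Myb and Tal1) were measured in all 4 libraries, the lowest value being 4270.3 normalized counts of Kit in untreated replicate 1. Of the genes of the sort, CD34 and the CD16/32 genes were present at low level (Cd34 at 491 and 554, Fcgr3 at 543 and 509.9 and Fcgr2b at 172 and 199 normalized counts in untreated libraries) and Ly6a, which encodes the Sca-1 antigen, was at 1.22 and 1.16 in untreated and 12.3 and 10.3 in Dex libraries, a rise whose call was lost with DESeq2 (adjusted p 0.061). Itga2b, which encodes CD41, was not low, at 9579 and 9866 in untreated and 9514 and 8432 in Dex libraries, so its transcript did not follow the depletion that the labels describe. It was not called, at an adjusted p of 0.13, but was called lower without Dex replicate 1 (log2 difference -0.21).

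Transcript levels differed between Dex and untreated cells in a large share of the genes. Of the 14125 genes tested, 3606 (25.5%) were called higher with Dex and 3677 (26.0%) lower, 51.6% in all. A gene was called where the edgeR quasi-likelihood test gave a Benjamini-Hochberg adjusted p below 0.05. Most of these differences were small: 4149 of the 7283 called genes (57.0%) differed by less than 1.5-fold. At least 2-fold, 729 genes (5.16%) rose and 989 (7.0%) fell, while at least 8-fold the numbers were 85 and 45, and at least 16-fold 45 and 10. The 2 libraries of each group did not overlap with those of the other in 10305 genes (73.0%), with Dex above in 36.8% and below in 36.1%. The median absolute log2 difference between groups was 0.267, against 0.0946 between the untreated libraries and 0.107 between the Dex libraries. The share called was 36.4% in the lowest of 4 equal level classes and 54.6% to 58.5% in the other 3 classes. Scaling by total counts in place of TMM moved the median over all genes from 0.01 to 0.14 on the log2 scale and gave 5451 genes higher and 2584 lower. The balance of directions therefore depends on the scaling, and medians of gene lists below are given relative to the median of all tested genes. Counts of list members called below are to be read beside the 25.5% higher and 26.0% lower over all tested genes. Without Dex replicate 1, 6806 genes were called, 3364 higher and 3442 lower.

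**Figure D1:**
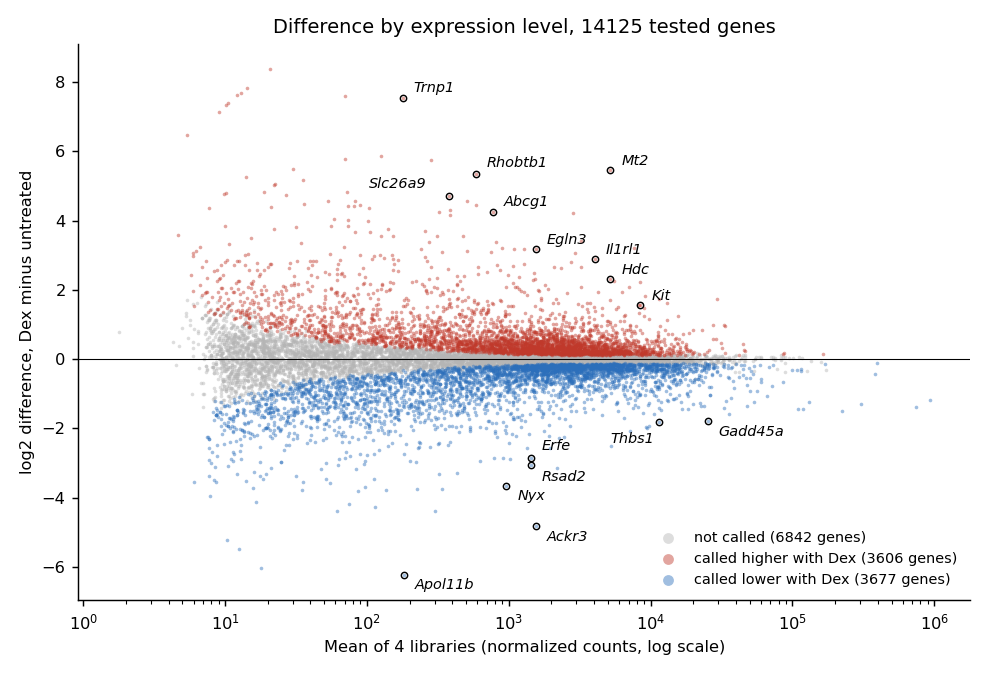
Mean normalized count over the 4 libraries (horizontal, log scale) against the log2 difference of Dex minus untreated (vertical), 1 point per tested gene, red where called higher (3606 genes), blue where called lower (3677) and grey where not called (6842). Large rises reach further than large falls at low and middle levels, and Mt2, Kit, Hdc and Gadd45a are labelled genes that changed at least 2-fold at a high level.

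The receptor gene itself was not called, and most of its known targets rose. Nr3c1 was at 2784 and 2767 normalized counts in untreated and 2458 and 2679.7 in Dex libraries, with a log2 difference of -0.11 ± 0.054 and an adjusted p of 0.11. It was called lower without Dex replicate 2 (log2 difference -0.19, adjusted p 0.013). Among 25 measured genes of the receptor complex and its coregulators, 6 were called higher and 10 lower with TMM scaling, and 10 higher and 6 lower with total count scaling. Fkbp5, which encodes the immunophilin that restrains the receptor and is among its classical targets, rose from 1715 and 1769 to 5388 and 5273, a 3.06-fold difference (log2 1.61 ± 0.048, adjusted p 6.4e-09). The largest fall of the list was in Hsd11b1, whose enzyme regenerates active glucocorticoid in many tissues, from 61.1 and 61.3 to 23.1 and 15. The coactivator gene Ncoa3 fell from 2259 and 2147 to 1314 and 1312, and Crebbp, a histone acetyltransferase, from 1308 and 1284 to 929.8 and 922. The groups did not overlap in Ncoa3 and Crebbp, as in 73.0% of all tested genes, and both falls were by less than 2-fold.

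Of 33 measured genes from a list of known glucocorticoid targets in any tissue, 21 were called higher and 7 lower, against 25.5% and 26.0% of all genes, and the list's median was 0.53 relative to all genes. Mt2 had the largest rise, from 208 and 256 normalized counts in untreated libraries to 10332 and 10067 in Dex libraries (43.9-fold, log2 5.46 ± 0.089, adjusted p 8.7e-10). Its neighbour Mt1 started higher and rose less, from 4840.0 and 5657 to 18973 and 16193 (3.35-fold). The windows shown above, which end at a RefSeq start site, hold 5 matches to TGCNCNC for Mt2 and 1 for Mt1. Of the pair only the Mt1 window has a match to the loose palindrome. Bases past these start sites were not searched, so the counts do not describe the whole promoters. Whether matches relate to the size of a rise was not tested. Rasd1, a small GTPase first described as Dex-induced, rose from 25.7 and 22 to 290.1 and 278. Map3k6 rose from 736 and 786 to 2724 and 2477 and Ddit4, an inhibitor of the growth kinase complex mTORC1, from 984 and 1003 to 3336 and 3317. Smaller rises were in Zfp36l2, an mRNA decay factor known to be needed for BFU-E self-renewal, at 2.37-fold (9072 and 9381 against 22210.1 and 21519), and in Zbtb16, at 1.97-fold. Of the list 13 genes rose and 3 fell at least 2-fold. Angptl4, which encodes a secreted inhibitor of lipoprotein lipase, fell from 577 and 562 to 144 and 138. Bcl6, a transcriptional repressor, fell from 121 and 125 to 20.8 and 16.9 (log2 -2.69 ± 0.24), and Cebpb from 2902 and 3258 to 1396 and 1044. Dusp1, which encodes a phosphatase of MAP kinases that many tissues raise with glucocorticoid, fell by less, from 901 and 1008 to 692 and 712. Of the list's 38 genes, 5 did not pass the filter, among them Tat and Cd163 with 0 counts in all 4 libraries.

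**Figure D2:**
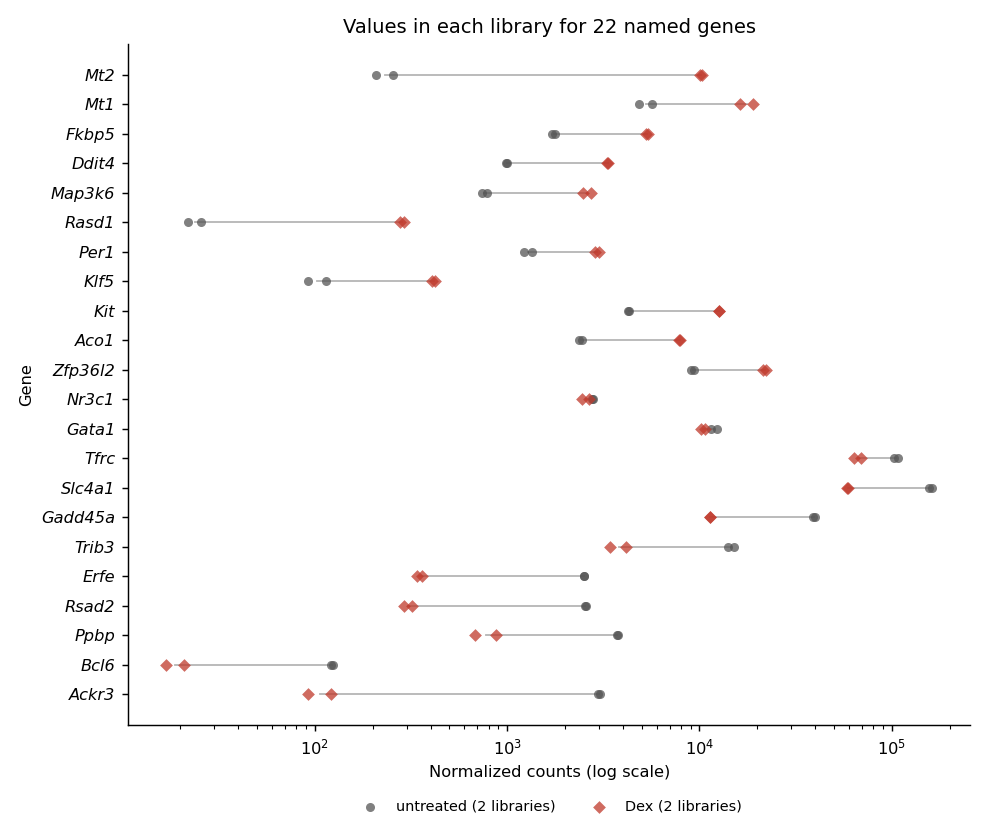
Normalized counts (horizontal, log scale) of 22 genes in each of the 2 untreated (grey circles) and 2 Dex libraries (red diamonds), with a line joining the group means. Libraries of a group lie close together, and Nr3c1 and Gata1 are the genes with the closest groups. The groups overlap in none of these chosen genes, beside no overlap in 73.0% of all tested genes.

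Among 20 clock genes, 8 were called higher and 6 lower (3 without untreated replicate 2), and among 13 Krüppel-like factors 4 were higher and 5 lower. Over all tested genes 25.5% were higher and 26.0% lower. Per1, a period gene with a known glucocorticoid response, rose from 1227 and 1353 to 3013 and 2863 (2.28-fold) and Cry2, a repressor of the same loop, from 1168 and 1215 to 2241 and 2078 (1.81-fold). Nfil3, a repressor of clock output, fell from 138 and 170.0 to 81.8 and 88.1. Of the Krüppel-like factors, Klf5 rose from 114 and 92.5 to 409 and 421, Klf2 from 25.7 and 27.8 to 114 and 79.7 and Klf13 from 1443 and 1575 to 3522 and 3138, and Klf9, the member best known as a glucocorticoid target, from 643 and 678 to 929.8 and 992. Klf3, a target and antagonist of Klf1, fell from 3844 and 3951 to 2098 and 2131. Klf1 itself, the main activator of the adult beta-globin gene, was at 15379.5 and 16724 in untreated and 15530.5 and 13298 in Dex libraries and was not called. It was called lower without Dex replicate 1 (log2 difference -0.27, adjusted p 0.0035), with DESeq2 (-0.16, 0.048), with no filter on low counts (-0.13, 0.034) and with the crossed replicate block (-0.16, 0.012).

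More of the factors that set the erythroid program fell than rose, by modest amounts, and a few rose strongly. Of 27 measured erythroid transcription factors 15 were called lower and 7 higher, with a median of -0.20 relative to all genes. With total count scaling the list was nearly balanced, at 11 lower and 9 higher. Gata1, the master regulator of the lineage, was at 11483 and 12377 normalized counts in untreated and 10662 and 10226 in Dex libraries (log2 -0.19 ± 0.051, adjusted p 0.01). That call was lost with total count scaling (log2 -0.06, adjusted p 0.331) and without untreated replicate 2 (log2 -0.14, adjusted p 0.085). Its partners Tal1 and Lmo2 fell further, from 22598 and 22654 to 15199.5 and 14890.1 and from 19906 and 19248 to 11915 and 12038, whereas Ldb1, the adaptor of the same complex, rose 1.23-fold. The small MAF proteins, which pair with NFE2 or BACH1 at globin and heme gene enhancers, went separate ways. Mafg fell from 13381 and 14723 to 8439 and 7721 and Mafk from 9168 and 9231 to 5372 and 5096, but Maff rose from 143 and 145 to 1431 and 1554 (10.4-fold). Nfia, a nuclear factor I gene active in erythroid differentiation, rose 8.08-fold. Gata2, a progenitor factor, rose 1.21-fold.

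Genes of earlier progenitors did not rise as a group. Of 27 measured, 16 were called lower and 6 higher, and the median was -0.60 relative to all genes. Kit rose from 4270.3 and 4311 to 12682 and 12629.6 (log2 1.56 ± 0.044, adjusted p 4.5e-09), with each Dex library above each untreated one by more than 2-fold, and Hhex, a homeobox gene of blood and liver progenitors, rose from 1357 and 1351 to 2782 and 2749. Mycn fell from 336 and 345 to 103 and 92.8 and Meis1, a homeobox partner of HOX proteins, from 710.3 and 695 to 245 and 282. Erg, Angpt1, Cd34 and Prdm16 fell as well, Cd34 from 491 and 554 to 255 and 263. In the MYC network of 12 measured genes 7 fell and 3 rose. The antagonists of MYC were not alike: Mxd3 fell from 654 and 679.9 to 229 and 226 and Mxi1 from 5588 and 5205 to 3041 and 2907, while Mxd4 rose from 708 and 740.0 to 1566 and 1535. Myc fell 1.22-fold. In the same libraries the summed markers of megakaryocytes were lower with Dex, as given below, and several of the early genes are shared with that lineage. Their part in the result was not tested.

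Many red cell products were lower with Dex, and among their lists the globins had the lowest median, -1.32 relative to all genes. Single genes of other lists fell further than the adult globin Hbb-bs, such as Dmtn (3.24-fold lower). In these bulk libraries, fewer maturing cells and less RNA per cell cannot be told apart. All 4 adult globin genes fell, for example Hbb-bs from 1277520.0 and 1307650.0 to 553678 and 591373 (2.26-fold lower) and Hba-a1 from 395079 and 475074 to 182796 and 169019, although near-identical copies make the split of reads within each pair uncertain. Hbq1a and Hbq1b, the theta globins, fell too, Hbq1b from 2495 and 2712 to 858 and 789. The embryonic gene Hbb-y went the other way at a low level, from 35.5 and 46.3 to 776 and 693 (17.9-fold, log2 4.16 ± 0.14), while the embryonic Hbb-bh1 fell 1.65-fold. The embryonic Hba-x rose from 19.6 and 12.7 to 37.8 and 36.6, a call that was lost without untreated replicate 2 (adjusted p 0.071) and with DESeq2 (adjusted p 0.057). In all, 7 of 9 measured globin genes fell and 2 rose.

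Genes of the red cell membrane followed in part. Of 33 measured, 21 fell, 3 rose and 9 were not called (6 rose with total count scaling and 5 without Dex replicate 1), with a median of -0.39 relative to all genes. Slc4a1, the anion exchanger band 3, fell from 157066 and 162150.0 to 59487 and 58305 (2.71-fold lower), and Dmtn, the actin-bundling protein dematin, from 9797 and 10112 to 3149.6 and 2998. Epb41, which joins spectrin to actin, fell from 88833 and 88708 to 42169 and 43057. Ank1, which anchors spectrin to band 3, fell from 32667 and 33143 to 19251 and 18804, whereas the adducin gene Add2 was not called, at 18082 and 18008 in untreated and 18298 and 17374 in Dex libraries. Rhag, which encodes the Rh-associated glycoprotein, rose from 21634 and 22061 to 31374 and 34390.5, and the carbonic anhydrase gene Car1 from 1536 and 1662 to 2149.6 and 2192. Hemgn, a nuclear target of GATA1, fell from 15959 and 15629.9 to 5016 and 5445.

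**Figure D3:**
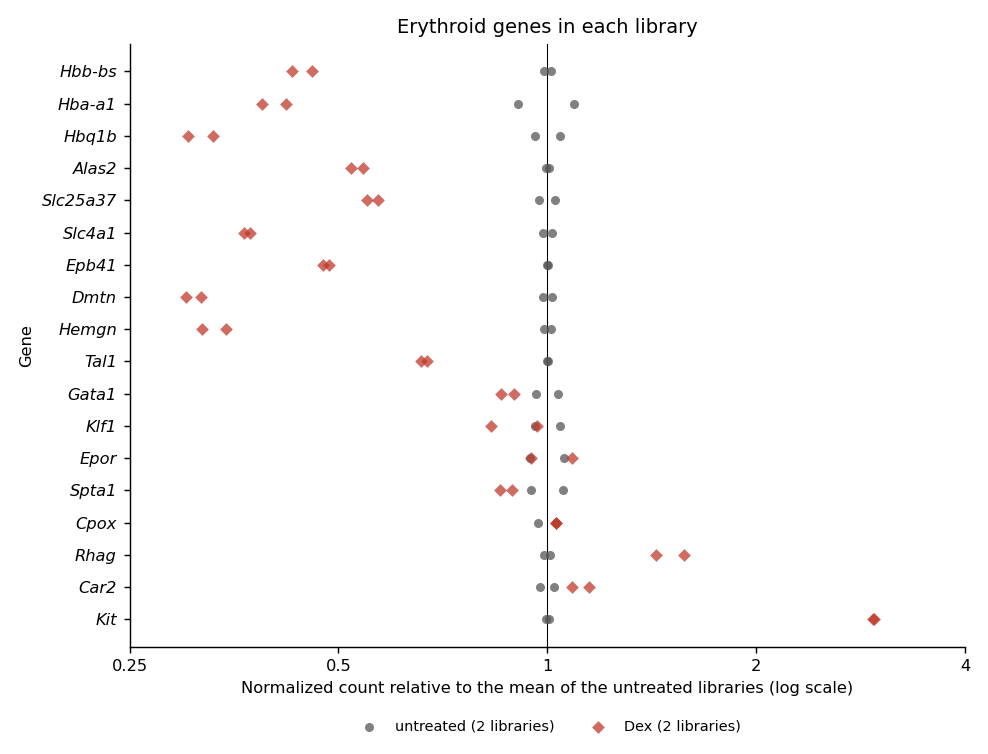
Normalized count of 18 genes of the erythroid lineage in each library, divided by the mean of the untreated libraries (horizontal, log scale), for untreated (grey circles) and Dex libraries (red diamonds). Globin, band 3, dematin and Hemgn transcripts lie below 0.5 in both Dex libraries, Gata1, Klf1 and Epor lie near 1, and Rhag and Kit lie above 1.

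Genes of heme synthesis fell in part. Of 21 genes of heme synthesis and breakdown 13 fell and 3 rose, and 7 rose with total count scaling. Alas2, the first and rate-limiting enzyme in red cells, fell from 74023 and 73468 to 38411 and 40062, and Urod, a later enzyme, fell 1.53-fold. Cpox, the next enzyme of the path, was not called, at 71589 and 76016 in untreated and 76053 and 75918 in Dex libraries. Hmox1, which breaks heme down, had the largest fall of the list, from 11036 and 11982 to 2811 and 2622 (4.23-fold lower, log2 -2.08 ± 0.058), and Tspo2, an erythroid membrane protein, fell from 10719 and 11068 to 5302 and 4922. In iron handling 7 of 16 genes rose and 7 fell, and 4 rose without untreated replicate 2 or without Dex replicate 2. Aco1, which encodes the iron sensor IRP1 that stabilises transferrin receptor mRNA and blocks ferritin translation, rose from 2364 and 2455 to 7968 and 7809 (3.27-fold, adjusted p 4.2e-09). Tfrc, the transferrin receptor and the CD71 of the sort, fell from 107799 and 102147 to 63836 and 69369.8, and the mitochondrial iron importer Slc25a37 from 48009 and 50623 to 27120.5 and 28107. The ferritin light chain gene Ftl1 fell from 86789 and 95385 to 53222 and 53490.5. Tfr2, a partner of the erythropoietin receptor, rose from 2518 and 2836 to 3659.6 and 3434.

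In the signalling of Kit, the erythropoietin receptor and IGF1, 13 of 29 measured genes rose and 11 fell (13 and 7 with total count scaling). The shares over all tested genes were 25.5% and 26.0% with TMM scaling. Epor was at 6929 and 7753 in untreated and 7954 and 6958 in Dex libraries and was not called. Besides Kit, Igf1r rose from 2188 and 2226 to 4403 and 4004, while its relative Insr fell from 2501 and 2466 to 1548 and 1524 and the shared adaptor Irs2 from 2933 and 3316 to 1870.3 and 1666. Among the proteins that pass on or damp the Kit signal, the kinase gene Lyn rose from 2830.2 and 2765 to 4921 and 5045, the adaptor Gab2 from 2882 and 2859.6 to 5039 and 5197, and the phosphatases Inpp5d, which encodes SHIP1, from 2977 and 3089 to 5935 and 5873 and Ptpn6, which encodes SHP1, from 1132 and 1122 to 1934 and 1980.2. Activators and inhibitors thus rose side by side. Pik3r1, the regulatory subunit of PI3 kinase, fell 1.55-fold.

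Targets of STAT5, the factor downstream of the erythropoietin receptor, split evenly by count, with 9 of 18 higher and 8 lower. For these and the MAP kinase genes below, the shares over all tested genes were 25.5% and 26.0%. Erfe, the hormone erythroferrone that erythropoietin induces, fell from 2523 and 2499 to 340.3 and 360.0 (7.18-fold lower, log2 -2.84 ± 0.064, adjusted p 1.3e-09). Pim1 fell from 24383 and 25530.2 to 12061 and 11651, Osm from 174 and 155 to 57.1 and 27.2 and Bcl2l1, the survival gene for BCL-XL, from 17243 and 18914 to 8471 and 7575. Against these, Socs1, an inhibitor of JAK kinases, rose from 129.6 and 169 to 613 and 573 and Serpina3g from 52.6 and 47.4 to 227 and 179, whereas Cish fell 1.38-fold and Socs3 1.51-fold. Stat5a and Stat5b rose 1.24-fold and 1.30-fold. Among 24 brakes of the MAP kinase path 6 rose and 9 fell with TMM scaling, and 11 rose and 8 fell with total count scaling. Dusp8 fell from 1765 and 1843 to 584 and 559 and Dusp4 from 101 and 128 to 47.8 and 50.6, and Rasa2, a RAS inhibitor, rose from 823 and 702 to 1111 and 1221.

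Brakes on mTORC1 and FOXO targets fell more often than they rose, by 12 to 7 of 24, yet the largest change of the list was the rise of Ddit4 given above. Besides Ddit4, Txnip rose from 2113 and 2330.0 to 5163 and 5217 (its promoter is shown above), Deptor, an inhibitor bound to mTOR, from 191 and 164 to 399.7 and 376, and Tsc2, the GTPase activator that shuts mTORC1 off, from 4681 and 5251 to 9019 and 8724. Foxo3 fell from 19865 and 19941 to 12686 and 12671, and Sesn1 and Sesn2, stress sensors upstream of mTORC1, from 2258 and 2241 to 1181 and 1213 and from 14429.6 and 15709.7 to 9551 and 8838. The arginine sensor paralogue Castor2 fell from 106 and 92.5 to 51.7 and 41.3.

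Receptors of the TGF-beta and BMP family rose in part. Of 28 measured genes 11 rose and 4 fell, while 13 were not called. Acvr1b, a type I activin receptor, rose from 341 and 372 to 1062 and 1059.5, Eng, the co-receptor endoglin, from 256 and 291 to 899.7 and 814, Bmpr1a from 317 and 319 to 794 and 832 and Tgfbr2 from 314 and 278 to 686 and 712. Tgfbr1 was not called, at 797 and 785 in untreated and 773 and 854 in Dex libraries. Tgfbr3, the co-receptor betaglycan, fell from 1249 and 1252 to 709.9 and 754, and Smad3, which carries the signal to the nucleus, from 697 and 728 to 433 and 422.

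Receptors of the interleukin 1 family rose by larger factors. Of 13 measured genes 8 rose and 3 fell, with a median of 0.58 relative to all genes. Il1rl2, the receptor of IL-36, rose from 15.9 and 4.63 to 525 and 585 and Il1r1 from 33 and 40.5 to 486 and 469.7 (12.9-fold). Il1rl1, the IL-33 receptor that mast cells and basophils carry, rose from 984 and 950.5 to 6888 and 7371. The adaptor genes behind them rose too, Myd88 from 2694 and 2531 to 3955 and 3922 and Irak4 from 738 and 748 to 1305 and 1261, but Irak2 fell from 957 and 986 to 536 and 604, and Il1rap, the chain the receptors share, was not called (326 and 327 in untreated and 321 and 364 in Dex libraries). Among 21 NF-kappaB and inflammatory genes 9 rose and 5 fell. The inhibitor Tnfaip3 rose from 126 and 178 to 809 and 815, Icam1 from 55 and 60.1 to 241 and 220.3 and Birc3 from 566 and 548 to 1301 and 1353, while Relb fell from 472 and 479.9 to 294 and 302 and Tnf from 64.8 and 76.3 to 19.3 and 16.9.

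Of 28 measured interferon-stimulated genes 15 fell and 3 rose (15 and 5 with total count scaling), with a median of -0.53 relative to all genes, and 12 of the falls were at least 2-fold. Rsad2, the antiviral enzyme viperin, fell from 2537 and 2560.1 to 290.1 and 322 (8.35-fold lower), Ifit1 from 561 and 689 to 44.8 and 47.8, Oasl2 from 8921 and 9008 to 1606 and 1547 and Isg15 from 1411 and 1369 to 195 and 192. Bst2 rose from 1447 and 1428 to 2532 and 2305. Among 20 chemokine receptors and integrins 9 fell and 4 rose. Ackr3, a scavenging receptor of CXCL12, fell from 3047 and 2979 to 92.6 and 121 (28.5-fold lower, log2 -4.83 ± 0.095, adjusted p 8.7e-10), the second largest fall among genes averaging 50 or more normalized counts. Itga6 fell from 1731 and 1732 to 530.1 and 559.8, whereas Itgb2, the beta chain of leukocyte integrins, rose from 1179.8 and 1181 to 2579 and 2682 while its partner Itgam fell from 197 and 180.4 to 49.4 and 60.0. The integrin chain gene Itga4 was not called.

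Of 17 immediate early factors 8 rose and 5 fell (9 and 2 with total count scaling), and 3 fell without either untreated replicate, without Dex replicate 2 or without either library of both drugs. Jun fell from 2998 and 3056 to 860.3 and 759 (3.73-fold lower) and Fos from 399 and 412 to 235 and 259.7, while Atf3, which pairs with JUN proteins, rose from 205 and 207 to 562 and 602 and Egr1 from 1903 and 2058 to 2775 and 3053. Among mRNA decay genes 7 of 21 were higher and 6 lower, and 12 were higher and 3 lower with total count scaling (4 higher without untreated replicate 2). With TMM scaling 25.5% of all tested genes were higher and 26.0% lower, shares not far from those of the decay genes. Tob1, which brings the deadenylase to its targets, rose from 880.2 and 899.6 to 1584 and 1559, and Btg1 and the exonuclease gene Xrn1 fell, Xrn1 from 1320.3 and 1250.0 to 668 and 788.

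Many cell cycle genes fell, by small steps, and few rose. None of 39 measured mitosis genes was called higher and 25 were called lower with TMM scaling (3 higher and 15 lower with total count scaling). In DNA replication 26 of 43 fell and 2 rose (13 fell with total count scaling, and 1 rose without either untreated replicate), and of 14 G1 cyclins and their partners 8 fell and none rose (6 and 1 with total count scaling). The medians were -0.26, -0.19 and -0.22 relative to all genes, and no mitosis or replication gene fell by 2-fold. Cdc25b, which activates CDK1, came nearest, from 10851 and 11412 to 5722 and 5464, followed by Incenp, a subunit of the Aurora B complex, from 17603 and 17393 to 9857 and 9705. In S phase, Tk1 fell from 4757 and 4921 to 2914 and 2754 and Uhrf1, which keeps DNA methylation through replication, from 10844 and 11111 to 7268 and 7063. Ccne1 fell from 6585 and 6733 to 3755 and 3707 and Ccnd3, the D cyclin of erythroid divisions, from 16634 and 18193 to 11293 and 11157, but Ccnd2 and Cdk6 were not called.

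Inhibitors of cyclin-dependent kinases and GADD45 genes had 8 of 16 higher and 7 lower, against 25.5% and 26.0% of all tested genes. Gadd45a, a stress-induced growth inhibitor and one of the more abundant transcripts of the list, fell from 39834 and 38713 to 11402 and 11336 (3.45-fold lower), and Gadd45b from 156 and 172 to 52.5 and 47.8. Cdkn1b, which encodes p27, fell 1.55-fold. Rises were in genes at low level, Cdkn1c, which encodes p57, from 28.1 and 30.1 to 111 and 100.3 and Cdkn2b from 75.8 and 64.8 to 166 and 143, and at high level in Ccng1, from 22147 and 22016 to 43354 and 45086. Among 26 BCL2 family and death genes 14 rose and 7 fell, beside the same shares of all tested genes. Besides Bcl2l1, the death activator Bbc3, which encodes PUMA, fell from 6340.1 and 6775 to 3316 and 2951, while Pmaip1, which encodes NOXA, rose from 565 and 503 to 1491 and 1597. The death effector gene Bax rose from 11304 and 12458 to 19027 and 16668 and the death receptor gene Fas from 68.5 and 63.6 to 143 and 157. The survival gene Mcl1 rose 1.23-fold and Bcl2 was not called. Genes for and against survival are thus found on both sides.

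The response to amino acid and endoplasmic reticulum stress that ATF4 drives was lower with Dex. Of 26 measured genes 17 fell and 4 rose (2 rose without Dex replicate 1 or without untreated replicate 1), with a median of -0.69 relative to all genes. Atf4 itself fell from 33821 and 33783 to 19814 and 18985, its relative Atf5 from 22567 and 26019 to 9544 and 8461, and their targets Trib3 from 14118 and 15189 to 4167 and 3421 (3.86-fold lower) and Ddit3, which encodes CHOP, from 13249 and 12990.0 to 4495 and 4423. Not every target followed: Asns, which makes asparagine, was at 23158 and 23579.5 in untreated and 23856 and 23338 in Dex libraries and was not called, while Mthfd2 fell from 13368 and 13386 to 7039 and 7257. Among 23 plasma membrane amino acid transporters 13 fell and 8 rose (5 without untreated replicate 1). Slc7a11, the cystine importer, fell from 3457 and 3208 to 519 and 615 (5.89-fold lower) and the branched-chain carrier Slc43a2 from 3763 and 3897 to 1211 and 1104. Slc7a8, a carrier of large neutral amino acids, rose from 85.6 and 103 to 409.7 and 409.7 and the glutamate carrier Slc1a3 from 80.7 and 87.9 to 209.9 and 223, both at low level.

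Genes of protein synthesis and folding moved by small amounts, and their direction depended on scaling. Beside the counts of this paragraph stand 25.5% higher and 26.0% lower over all tested genes with TMM scaling. Aminoacyl tRNA synthetases had 5 of 20 higher and 6 lower, and 9 higher and 4 lower with total count scaling (3 higher without untreated replicate 1 or either library of both drugs). Aars fell from 22286 and 22772 to 18188 and 16665 and Qars rose from 8873 and 9415 to 11183 and 11268. Of 27 chaperones 7 rose and 12 fell (10 rose and 5 fell with total count scaling), with Hspa5, the main chaperone of the endoplasmic reticulum, falling from 36422 and 35620.2 to 25950.0 and 26119.9 and Hsf2 rising from 507 and 467 to 699 and 669. Ribosome biogenesis genes had 4 of 38 higher and 13 lower, and 11 higher and 6 lower with total count scaling (2 higher and 7 lower without untreated replicate 1). Ncl, which encodes nucleolin, fell from 136094 and 121882 to 99191 and 103659 and Utp20 rose from 7526 and 7208 to 9219 and 9162. Cytosolic ribosomal protein genes had 69 of 87 not called, 5 higher and 13 lower, a split that turned to 25 higher and 2 lower with total count scaling, with 11 higher without Dex replicate 1 and 7 lower without untreated replicate 1. Those of the mitochondrial ribosome had 11 of 76 higher and 19 lower, and 27 and 8 with total count scaling (10 lower without untreated replicate 2), with Mrps31 falling from 1346 and 1194 to 637 and 714. Of 39 proteasome genes 8 rose and 5 fell (23 and 2 with total count scaling) and moved to 4 higher without untreated replicate 1. Without untreated replicate 2 or Dex replicate 2, 3 fell, and without either library of both drugs 5 rose and 3 fell. The PA28 activator subunits Psme1 and Psme2 rose, Psme2 from 2306 and 2268 to 3257 and 3337, and Psme3, the nuclear activator, fell from 26244 and 26638 to 18348 and 19398. Of 42 histone genes measured in these polyA libraries 6 rose and 11 fell.

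Of 35 genes of glycolysis and the pentose phosphate path 15 rose and 9 fell. Hk1, the first kinase of the path, rose from 22784 and 22333 to 45298 and 42542, Pgam1 from 3966 and 3768 to 7594 and 8953 and Aldoc from 256 and 273 to 921 and 816, while the main glucose transporter gene Slc2a1 fell from 63022 and 68540.4 to 36120.3 and 33378. Bpgm, which makes the 2,3-bisphosphoglycerate of red cells, fell from 27441 and 25889.8 to 9863 and 9901 (2.70-fold lower). Of 18 oxygen sensing genes 6 rose and 4 fell, against 25.5% and 26.0% of all tested genes. With total count scaling 9 rose and 2 fell, and 2 fell without untreated replicate 1 too. Egln3, a prolyl hydroxylase that marks HIF proteins for decay, rose from 303 and 312 to 2761 and 2843 (9.10-fold, adjusted p 8.7e-10), and Egln1 rose 1.48-fold. Vegfa fell from 1704 and 1658 to 1119 and 1090.4.

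Fatty acid use and PPAR targets had 13 of 35 higher and 12 lower, against 25.5% and 26.0% of all tested genes. Acaa2, the last enzyme of mitochondrial beta-oxidation, rose from 2945 and 3179.9 to 8667 and 8063 and Acadl, a long-chain dehydrogenase, from 3610.1 and 3261 to 6623 and 7172. The lipid chaperone gene Fabp4 fell from 612 and 538 to 31.6 and 22.5 (20.9-fold lower) and Acot2, a mitochondrial thioesterase with a near-identical neighbour that makes its counts uncertain, from 577 and 599 to 57.9 and 59.1. Ppara, the target of the other drug of the study, had at most 1 count in each of the 4 libraries. Genes of cholesterol and fatty acid synthesis fell, with 23 of 38 lower and 5 higher (3 higher without untreated replicate 2). Fdps and Ebp, enzymes of the sterol path, fell 1.51-fold and 1.54-fold, Fdps from 23910.3 and 24459.5 to 16561 and 15394, and no gene of the list fell by 2-fold. The sterol exporter Abcg1 rose from 69.7 and 83.3 to 1544 and 1396 (19.2-fold), but Mylip, another target of the sterol receptor LXR, fell from 586 and 515 to 241 and 254.

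Of 80 nuclear genes of the respiratory chain 19 rose and 10 fell (46 and 3 with total count scaling). With TMM scaling 25.5% of all tested genes rose and 26.0% fell. Ndufb2 rose from 2517 and 2765 to 4353 and 4123 and Ndufa5 fell from 3011 and 2957 to 2292 and 2413. Of 12 measured genes of the mitochondrial genome 1 was called lower, none without Dex replicate 1 and all 12 without Dex replicate 2. With no filter on low counts 11 were called lower, as with the crossed replicate block, and none with DESeq2 or total count scaling. The gene called in the main fit was mt-Co1, at 454743 and 415628 in untreated and 259120.0 and 390185 in Dex libraries. Dex replicate 1 was the lower in each of the 12 genes, and without it the difference of mt-Co1 was -0.16 on the log2 scale with an adjusted p of 0.09. The call was also lost without untreated replicate 1 (adjusted p 0.143), without untreated replicate 2 (0.054), with DESeq2 (0.167) and with total count scaling (0.106). Of 30 genes of autophagy 17 fell and 3 rose (12 and 7 with total count scaling). Sqstm1, the cargo receptor p62, fell from 32352 and 32964 to 13422 and 12423 (2.53-fold lower), and Ulk1, the kinase that starts autophagy and is known to act in the clearance of mitochondria from reticulocytes, from 13985 and 15321 to 7406 and 6765. Atg5 rose from 1939 and 1932 to 2826 and 2701. In DNA methylation 4 of 14 rose and 5 fell, against 25.5% and 26.0% of all tested genes, and 3 fell with total count scaling or without untreated replicate 2 or Dex replicate 2, Tet2 rising from 734 and 753 to 1219 and 1239.5 and Dnmt3b falling from 875 and 886 to 383 and 413.

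Markers of other blood lineages were present in all 4 libraries and differed between the groups. Megakaryocyte and platelet markers fell most evenly: 18 of 21 fell, none rose, and their summed level went from 116253 and 117344 normalized counts in untreated to 67427 and 66935 in Dex libraries. Ppbp, a platelet chemokine, fell from 3731 and 3763 to 677 and 874, Tubb1, the platelet tubulin, from 1452 and 1575 to 359 and 371, and Thbs1 from 17963 and 17772 to 5132 and 5120.3. Neutrophil and eosinophil markers summed to 16895 and 17929 in untreated and 8423 and 8151 in Dex libraries, with 15 of 20 lower and 2 higher (1 higher without untreated replicate 1 or either Dex replicate). Prg2, the eosinophil major basic protein, fell from 408 and 389.7 to 81 and 67.5 and Mpo, the neutrophil peroxidase, from 7834 and 8566 to 3572 and 3353. How much of any difference above came from fewer cells of these kinds was not tested.

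Mast cell and basophil markers split by direction. Their sum went up, from 21051 and 21346 to 42359 and 42566, yet 6 of 14 fell and 6 rose. Hdc, which makes histamine, rose from 1749 and 1748 to 8879 and 8487, and Hdc, Kit and Il1rl1 made up most of the increase in the sum. Kit and Gata2 of this list are erythroid progenitor markers too. The granule protease genes went down: Cpa3 from 2857 and 2895 to 647 and 724, Mcpt8 from 312 and 319 to 48.6 and 45.9 and Cma1 from 864 and 843 to 215 and 208. In the monocyte and macrophage list 7 of 10 measured markers fell and 2 rose (1 without either untreated replicate or without Dex replicate 2). Spi1, the myeloid factor PU.1 that opposes GATA1, rose from 636 and 688 to 2745 and 2444 (3.92-fold) and alone held most of the list's sum with Dex, while Lyz2 fell from 1307 and 1226 to 341 and 362 and Irf8 from 169.9 and 151 to 45.5 and 41.3. The macrophage marker Cd68 was at 94.1 and 94.8 in untreated and 127 and 141 in Dex libraries. It was called higher, a call that was lost in 4 settings. The macrophage genes C1qa, C1qb, C1qc and Timd4 had at most 2 counts in any of the 4 libraries. Defining genes of lymphoid cells (Cd3e and Ms4a1) had at most 1, those of hepatoblasts (Alb, Apob and Ttr) at most 5 and those of endothelium (Cdh5 and Emcn) at most 4. Of 6 measured hepatoblast markers 3 rose and none fell, Apoa1, an apolipoprotein of liver, from 9.78 and 4.63 to 158 and 153. Of 6 endothelial and stromal markers 1 rose and 2 fell. Pdgfrb, a stromal receptor, rose from 182 and 260.2 to 722 and 702, while the endothelial genes Pecam1 and Kdr fell, Pecam1 from 597 and 587 to 224 and 247. Of 5 lymphoid markers 3 fell and 1 rose. Gzmb, a granzyme, fell from 351 and 328 to 77.9 and 87.2, and Vpreb1, a part of the pre-B cell receptor, rose from 19.6 and 25.4 to 57.9 and 52.5.

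**Figure D4:**
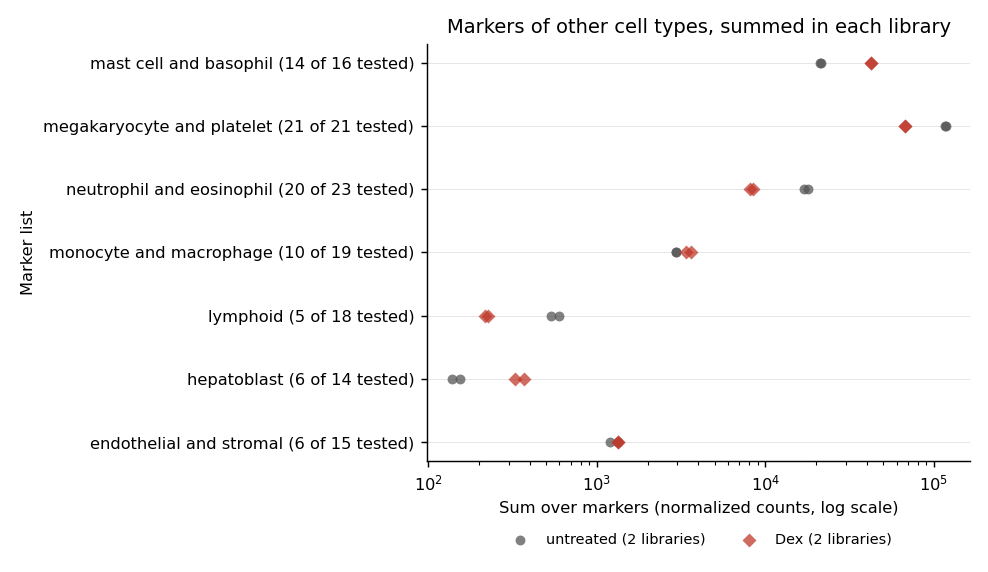
Sum of normalized counts (horizontal, log scale) over the tested markers of 7 other cell types in each untreated (grey circles) and Dex library (red diamonds), with the number of markers tested beside each list. Megakaryocyte, neutrophil and lymphoid sums are lower with Dex, mast cell, hepatoblast and monocyte sums are higher, and endothelial sums lie close together.

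**Figure D5:**
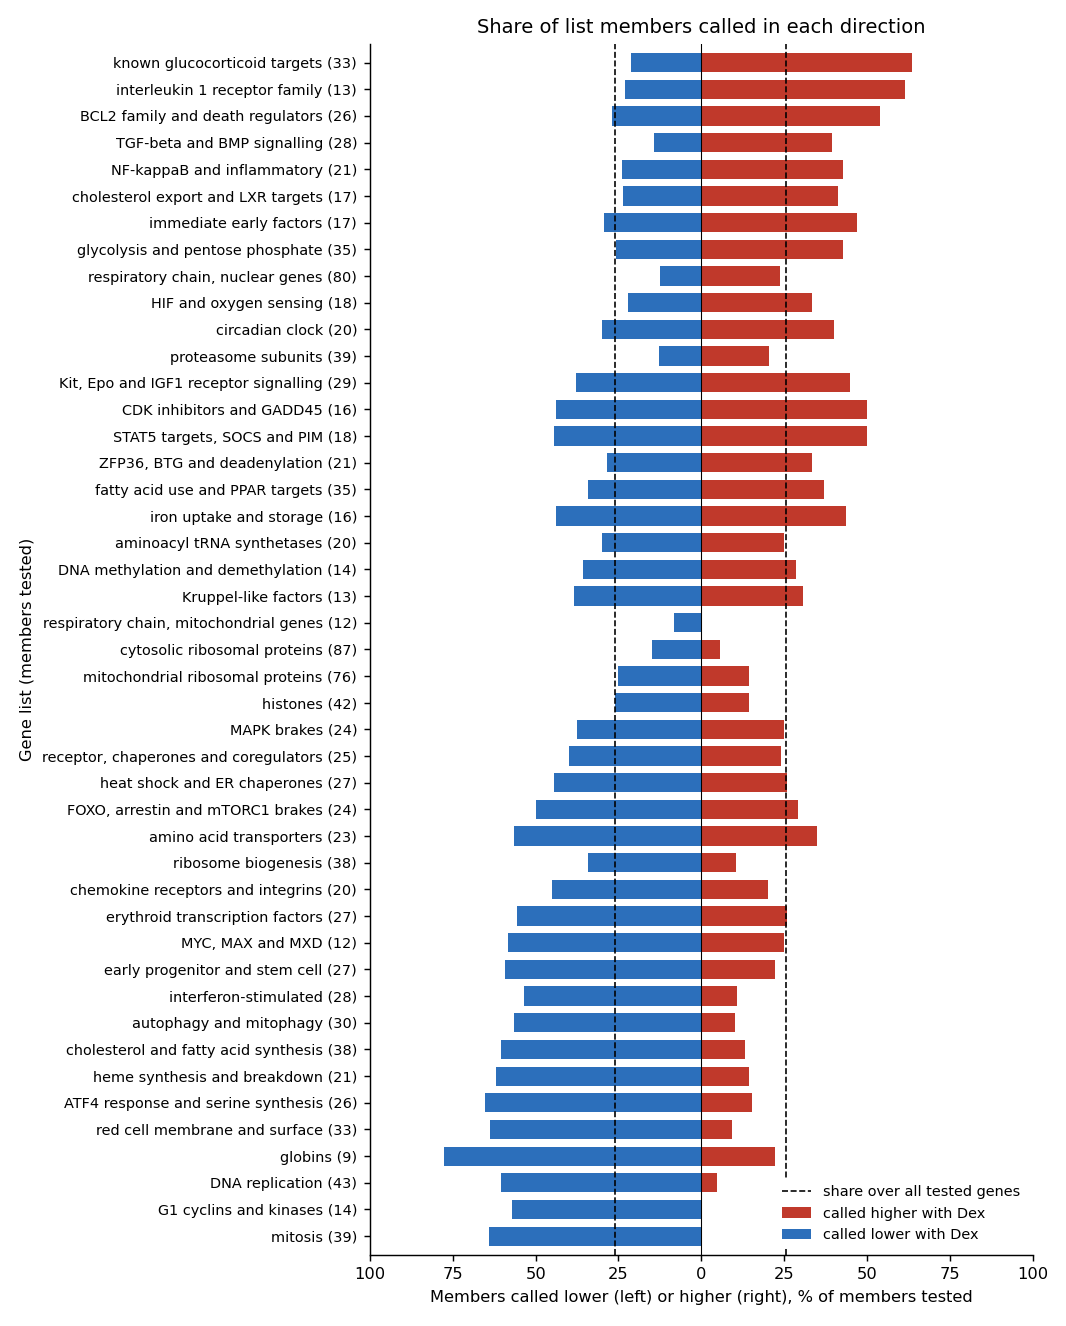
Share of the tested members of 45 gene lists called lower (blue, left) or higher (red, right) with Dex, ordered by the difference of the shares, with the number tested in parentheses. Dashed lines mark the shares over all tested genes, 26.0% lower and 25.5% higher; known glucocorticoid targets and the interleukin 1 receptor family head the list, and mitosis, G1 cyclin and DNA replication genes are at the foot.

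Besides Mt2 and Il1rl2, the largest rises lay outside these lists. Among genes averaging 50 or more normalized counts, Dnah2, a dynein heavy chain of cilia, went from 0 and 1.16 to 148 and 129 and Trnp1, a nuclear protein studied in neural progenitors, from 2.45 and 1.16 to 385 and 330.0. Rhobtb1, an atypical small GTPase, rose from 28.1 and 27.8 to 1112 and 1186 (40.9-fold, log2 5.36 ± 0.11) and Slc26a9, a chloride transporter, from 26.9 and 27.8 to 714 and 743. Tmem51 rose from 31.8 and 50.9 to 1005 and 956. Tnr, which encodes tenascin-R of the nervous system's matrix, went from 3.67 and 4.63 to 255 and 242, Mst1r, a receptor tyrosine kinase, from 9.78 and 3.47 to 157 and 158, and Ndufa4l2, a mitochondrial protein induced by HIF1, from 3.67 and 1.16 to 138 and 138. Several of these were thus at a few counts in untreated cells, where a fold change is imprecise.

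In 8 called genes both untreated libraries had 0 counts, and in no called gene were both Dex libraries at 0. The most counts were in Adamts14, a procollagen protease, with 57 and 41 in the Dex libraries. Against a floor of 3 counts over the untreated group it was at least 23.3-fold higher. Cd200r2 had 35 and 32 counts (at least 15.9-fold higher) and Fgf2, a fibroblast growth factor, 31 and 19 (at least 11.9-fold higher). These 0 counts mean only that the gene was not detected at this depth.

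Among genes averaging at least 50 normalized counts the largest fall was in Apol11b, an apolipoprotein L gene, from 367 and 350.4 to 3.86 and 5.63 (log2 -6.23 ± 0.26, adjusted p 5.4e-08). Prss50, a serine protease gene, fell from 205 and 227 to 12.3 and 9.38, Oxtr, the oxytocin receptor, from 149 and 134 to 8.49 and 6.56, and Mgll, a lipase that breaks down monoacylglycerols, from 413 and 429 to 34.7 and 27.2. Nyx, a leucine-rich repeat protein known from the retina, stood out by level, falling from 1789.8 and 1773 to 132 and 152 (12.6-fold lower). Maob, a monoamine oxidase gene, fell from 167 and 195 to 17 and 10.3 and Sh3pxd2a, a scaffold of podosomes, from 265 and 242 to 16.2 and 20.6. In each of these genes both Dex libraries lay below both untreated libraries, as in 36.1% of all tested genes. Their choice as the largest falls makes that separation no separate result.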

How the data were processed

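PolyA RNA from sorted BFU-E was sequenced in 6 libraries. The deposited count columns hold whole reads per gene, and the deposited signal columns, which were not used, hold those counts divided by a size factor for each library. The submitters' processing notes name TopHat 1.4.1, HTSeq and DESeq and the builds mm9 and NCBIM37, and the strand setting of the counting is not given in the sources used here. Of 37620 gene identifiers, 32897 were matched to a symbol through GENCODE M21.

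The 2 tables were joined by identifier. Genes were kept by edgeR's filterByExpr with a minimum count of 10, which left 14125 genes with 99.971% of the counts. TMM factors and edgeR 4.0.16 quasi-likelihood tests in R 4.3.3 were computed over all 6 libraries, and p-values were adjusted over all tested genes by Benjamini-Hochberg with a threshold of 0.05. Normalized counts are counts divided by the effective library size and multiplied by its mean over the 6 libraries, and are not corrected for gene length. Errors beside log2 differences are standard errors from the fit. Only the edgeR fit was tested on simulated counts, which held far fewer changed genes than were called here. That simulation does not bear on the choice of scaling or on the number of calls.

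The members and lists were chosen with earlier results of these data known. Genes were named by rule: from each list up to 2 called members with the largest rise and 2 with the largest fall, given an average of 50 or more normalized counts, the 12 largest of each direction over all genes, the sort genes, Nr3c1, Kit and Gata1, and the 5 genes with the most counts among those at 0 in 1 group. Other members named in the text were chosen after their values were seen, and a few members are not reported here. Alternatives were DESeq2 1.42.0, limma-trend (limma 3.58.1), total count scaling, other filters, the 4 libraries alone, a replicate block and leaving out each library. Promoters are RefSeq sequences, matched by symbol for 9986 of 13577 tested genes with a symbol.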

Additional observations from a re-analysis of the deposited data

How the results depend on the processing

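Counts of genes called with Dex against untreated were 7283 in all, 3606 higher and 3677 lower, and 729 and 989 at least 2-fold. Total count scaling gave 5451 higher, more than 1.5 times the main count. Restricting the test to genes averaging 50 or more counts, which leaves fewer genes, gave 463 higher and 608 lower at least 2-fold. Leaving out 1 library at a time gave 6056 to 7059 called genes, 2968 to 3364 higher and 3078 to 3753 lower, and 674 to 718 higher and 907 to 1031 lower at least 2-fold. DESeq2 called 6142 genes, limma-trend 7247, no filter on low counts 7825, and the 4 libraries alone 6701. Replicate numbers are shared between the groups, but deviations of same-numbered libraries correlated at -0.19 (untreated and Dex), -0.03 (untreated and both drugs) and 0.12 (Dex and both drugs), so the numbers were not taken to pair samples. With the replicate block 6824 genes were called, 3358 higher and 3466 lower, and 719 and 981 at least 2-fold. With the crossed pairing, added after the data were seen, 8044 genes were called. Of the 218 genes named by rule, 206 kept their side of the threshold in every one of the 14 settings that tested them and none reversed; the filter of 50 counts tested 208. With 2 libraries a group, an exact permutation test of a single gene cannot reach 0.05, so calls rest on the spread pooled across genes, and low counts limit precision among genes of low level.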

Other observations

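A further 5 gene lists were drawn up after values of these data had been seen, so their counts are descriptions only, beside 25.5% of all tested genes higher and 26.0% lower. Targets of p53, the damage-responsive tumour suppressor, had 15 of 20 higher and 4 lower, with a median of 0.52 relative to all genes. Perp, which encodes a membrane protein of the p53 response, rose from 334 and 329.5 to 2189 and 2265 normalized counts (6.71-fold), and Plk2, a kinase, from 388 and 383 to 1020.0 and 1074. Mdm2 was not called, at 10652 and 9642 in untreated and 9886 and 10661 in Dex libraries, and Cdkn1a rose only 1.11-fold. The 4 lower genes were Bbc3 (2.09-fold lower), Sesn1, Sesn2 and Btg2. Targets of NRF2 and BACH1 in oxidative stress had 3 of 22 higher and 13 lower, with a median of -0.43 relative to all genes. Pir, which encodes pirin, fell from 738 and 719 to 163 and 177, and Gclc, the limiting enzyme of glutathione synthesis, from 17131 and 16662 to 8754 and 9162, while the peroxiredoxin gene Prdx1 rose from 15267 and 15094 to 20122 and 20687.

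In the NOTCH pathway 4 of 19 genes rose and 9 fell, and in the WNT pathway 4 of 22 rose and 10 fell. Among Polycomb and trithorax genes 5 of 28 rose and 15 fell. Ezh1, a histone methyltransferase, fell from 2214 and 2198 to 1403 and 1463. Eed, a core subunit of the same complex as Ezh1, rose from 3443 and 3363 to 5259 and 5219.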
